A study of Mus musculus with 6 samples.

Results

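The stefin A genes form a cluster of near copies on mouse chromosome 16, and this account follows them through bone marrow erythroblasts of mice with P38α on 1 allele or on none. Members were the non-control probes of the array placed wholly between 36 and 36.5 Mb of chromosome 16 (mm9) whose gene name starts with Stfa, Cstdc, Csta or BC1. That gave 11 genes with 1 probe each, of 34758 genes and 55681 probes on the array. The names printed in the array files gave 7 of them, and the current RefSeq symbol gave the other 4, among them the probe filed as Gm5483, now Cstdc4. The cluster was chosen by the signals of Cstdc4 and Cstdc5 on these arrays, lower in P38α-/-, so the genotype difference of the members is given below as a description, without a test.

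Stefins are small proteins of the cystatin superfamily that sit in the cytosol, lack a signal peptide and block papain-like cysteine proteases such as cathepsins B, H, L and S by plugging the active site. The human genome has a single stefin A gene, CSTA, while in the mouse the locus was duplicated into many copies, several of which are known from neutrophils and their bone marrow precursors and others from epidermis. S100a8 and S100a9, the paired calcium-binding proteins of the neutrophil cytosol, served as the comparison because their transcripts are among the most abundant of that lineage. Erythroblasts are not known for either group.

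Each array held RNA of CD71highTer119+ erythroblasts sorted from the bone marrow of 1 mouse on day 4 of recovery from phenylhydrazine (PHZ), which lyses red cells and forces the marrow into stress erythropoiesis. There were 3 P38α+/- and 3 P38α-/- mice, 6 to 8 weeks old at the start, all bred from floxed P38α and the Mx-Cre transgene, all given 3 injections of 300 µg PolyIC followed by 6 weeks of rest, and all given PHZ at 100 mg per kg. Mx-Cre answers to interferon and so also acts outside the erythroid lineage. The P38α+/- controls keep 1 allele. Mapk14, which encodes P38α, was not lower on the arrays labelled P38α-/-: by its brighter probe it read 0.33, 0.58 and 0.61 on the P38α+/- arrays and 0.76, 1.19 and 1.20 on the P38α-/- arrays, and the sources used here do not say whether either of its 2 probes lies in the deleted exons, so this checks nothing about the labels.

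Levels are log2 signals after subtraction of a per-array reference, the 75th percentile of the 15540 probes that every array detected well above background. A value of -3 thus lies 3 log2 units below that percentile. Levels of different probes are not read as relative amounts. Where probes are subtracted or summed within an array, only the change between arrays is read. A probe entered the test if all 3 arrays of at least 1 genotype detected it well above background, and a gene was called where limma gave an adjusted p of at most 0.05 and at least a 2-fold difference. Of 14158 tested genes, 5 were called lower and 19 higher in P38α-/-. This split moved with the scaling: it was 273 and 384 with the percentile over all probes, 1 and 13 after quantile normalization, 6 and 2 with spike-in centring, 0 and 11 with normexp background correction and 0 and 10 in the authors' normalized values. The median difference over all tested probes was -0.16, and it ranged from -0.08 to 0.32 across those 5 scalings. Between 28.9% and 53.1% of the probes were well above background, the most on P38α+/- replicate 1, where 8458 probes were well above background on that array alone. P38α-/- replicate 3 was the only array of its slide, and the 13 erythroid marker genes with a probe, all detected on all 6 arrays, differed between genotypes by -0.17 to 0.21.

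Because the copies are so alike, what each probe can tell apart was examined first. The probe of Stfa2l1 joins a pair of exons across chr16:36160118-36161876 and shares 50 of its 60 bases with the probe of an unnamed transcript, ENSMUST00000077110, placed at chr16:36136075-36137745. The array files also list transcripts of Stfa2 for the Stfa2l1 probe, so its signal may hold that of Stfa2. The probes of Cstdc4 (chr16:36188043-36188102) and Stfa3 (chr16:36450693-36450752) share a run of 22 bases. These 4 are shown because their signals cannot be taken as wholly separate; capitals mark the longest run that each shares with its partner, and sequences are those of the array files.
Stfa2l1 probe: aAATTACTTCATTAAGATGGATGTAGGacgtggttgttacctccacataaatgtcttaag
ENSMUST00000077110 probe: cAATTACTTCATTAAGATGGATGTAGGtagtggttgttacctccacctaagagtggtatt
Cstdc4 probe: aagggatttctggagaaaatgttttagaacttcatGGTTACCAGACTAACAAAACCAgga
Stfa3 probe: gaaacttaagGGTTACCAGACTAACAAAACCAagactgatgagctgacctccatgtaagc
A run of 25 bases, cttctaagcagcaaattctaaagtg, is common to the probes of Cstdc5 (chr16:36359525-36359584) and Csta2 (chr16:36257452-36257511). The Cstdc5 probe read well above background on every P38α+/- array, while the Csta2 probe did so on none. A cDNA listed for Cstdc6 is also listed for the Cstdc5 probe. Probes of Stfa1 (chr16:36285398-36285457) and Stfa2 (chr16:36404032-36404089) shared no run above 9 bases with any other member's probe. Aligned with each other, however, these 2 probes were identical at 40 of 58 aligned bases. The probes of Cstdc4 and Cstdc3 were identical at 44 of 56, with a longest run of 8. A short run thus does not show that a probe reads its gene alone. Exon and UTR positions of the probes were not analysed here, because no annotation of mm9 was used.

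The promoters repeat the likeness of the genes. RefSeq promoters (GRCm38.p6; 250 bases before to 50 after the start) matched 10 of the 11 genes, with 2 start sites for Cstdc3. Over the 300 bases, Stfa2l1 and Stfa2 were identical at 91.7% and Stfa1 and Cstdc5 at 89.7%, while Cstdc4 was nearest to Cstdc3 at 79.3%. Shown are the 150 bases before the start of the 6 genes whose signal was high enough to test, in GRCm38.p6 coordinates, which differ from the mm9 positions of the probes. Capitals mark GAGGAA, TTGCNNAA and AGATAA on either strand (types of site known to be bound by PU.1, C/EBP and GATA factors, central to myeloid and erythroid cells) and the stretch CCTTTAAAACCC described next; where AGATAA and that stretch touch, as in Stfa3, the capitals run together.
Stfa2l1 (chr16:36156661-36156810, plus strand): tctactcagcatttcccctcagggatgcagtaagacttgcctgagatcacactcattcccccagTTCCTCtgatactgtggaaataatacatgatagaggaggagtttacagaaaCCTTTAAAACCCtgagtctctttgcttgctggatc
Stfa2 (chr16:36408364-36408513, minus strand): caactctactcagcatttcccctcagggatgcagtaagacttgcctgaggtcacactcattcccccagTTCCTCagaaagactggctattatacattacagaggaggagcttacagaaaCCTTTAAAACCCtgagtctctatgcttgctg
Stfa1 (chr16:36276998-36277147, plus strand): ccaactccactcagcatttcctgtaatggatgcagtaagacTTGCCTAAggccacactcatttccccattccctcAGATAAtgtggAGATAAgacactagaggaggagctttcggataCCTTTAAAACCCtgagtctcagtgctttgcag
Cstdc5 (chr16:36367571-36367720, minus strand): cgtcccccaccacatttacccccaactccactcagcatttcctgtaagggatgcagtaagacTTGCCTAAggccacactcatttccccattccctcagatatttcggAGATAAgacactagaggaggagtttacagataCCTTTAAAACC
Cstdc4 (chr16:36184062-36184211, plus strand): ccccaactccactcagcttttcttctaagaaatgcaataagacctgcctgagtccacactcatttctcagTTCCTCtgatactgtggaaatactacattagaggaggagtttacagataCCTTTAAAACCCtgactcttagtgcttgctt
Stfa3 (chr16:36455393-36455542, minus strand): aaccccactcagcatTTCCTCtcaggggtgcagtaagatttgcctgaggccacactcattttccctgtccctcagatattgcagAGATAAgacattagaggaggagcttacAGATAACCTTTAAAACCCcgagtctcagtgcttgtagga
The stretch CCTTTAAAACCC stood in 8 of the 11 member promoters, from 79 to 11 bases before the start, and in 10 of 32851 mouse promoters in all; it was picked after the sequences were seen. In Cstdc5 it crosses the annotated start, so its last base lies outside the stretch printed. GAGGAA was found in 8 of 11 member promoters against 28.3% of all promoters, TTGCNNAA in 4 against 10.8%, and AGATAA in 5 against 11.2%. Neither TATAAA nor GAAANNGAA, a letter pattern of interferon response elements, was found in any, against 13.6% and 8.56% of all promoters. The closest pairs also shared their letters: Stfa2l1 and Stfa2 held GAGGAA without the other patterns, nearest to the start at 86 and 82 bases before it, while Stfa1 and Cstdc5 held TTGCNNAA and AGATAA as well. Copies of one ancestral promoter are not independent, and a match of letters is no evidence of binding.

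Of the 11 genes, 6 were measured well enough to test: Stfa2l1, Cstdc4, Stfa1, Cstdc5, Stfa2 and Stfa3. For 5 of them every P38α-/- array lay below every P38α+/- array, by a median difference over the 6 of -2.51, or -2.35 against the median probe. Over all tested genes 19.7% were separated in this way and 11.1% were at least 2-fold lower, and since the contrast was the one used to pick the cluster, nothing is read from the excess. Cstdc4 and Cstdc5, on whose signals the cluster was chosen, met the call rule for lower genes, as did 0.0353% of tested genes, and no member met it for higher genes, as did 0.134%; the choice of the cluster fixed this count, and it tests nothing.

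**Figure D1:**
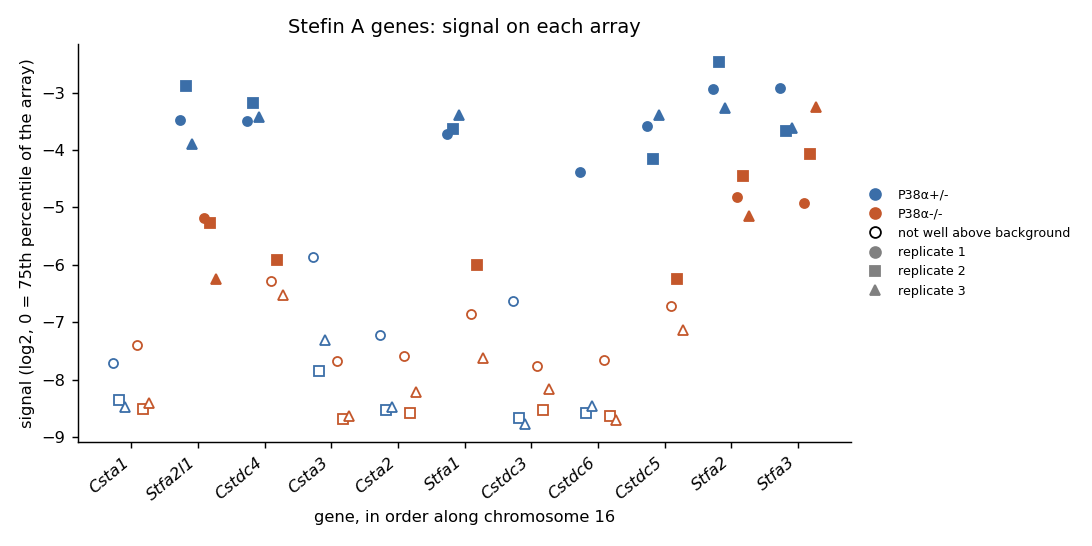
Log2 signal of each stefin A gene on each of the 6 arrays (y axis, relative to the array's 75th percentile), with genes in chromosomal order, genotype by colour, replicate by shape and open symbols where the probe was not well above background. The 3 P38α-/- points of Stfa2l1, Cstdc4, Stfa1, Cstdc5 and Stfa2 lie below the 3 P38α+/- points, those of Stfa3 overlap, and the other 5 genes lie at the floor on nearly all arrays.

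Stfa1 had the largest difference of the members as measured, though 2 of its 3 P38α-/- values were not well above background, and with normexp background correction it was -1.12 against -1.13 for Cstdc4. Its signal was -3.72, -3.64 and -3.39 on P38α+/- replicates 1 to 3 and -6.86, -6.00 and -7.62 on P38α-/- replicates 1 to 3. Well above background on all control arrays, it was so on P38α-/- replicate 2 alone, which was also the highest of its genotype. The difference was -3.24 with a standard error of 0.40.

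Cstdc5, filed as BC100530, has the promoter nearest to that of Stfa1. It read -3.58, -4.15 and -3.40 in P38α+/- and -6.71, -6.24 and -7.13 in P38α-/-, a difference of -2.98 with a standard error of 0.30. Again P38α-/- replicate 2 was the only array of its genotype well above background. The lowest control still lay 2.09 above the highest P38α-/- array.

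Cstdc4 varied least among the controls. Its signal was -3.50, -3.18 and -3.43 in P38α+/- and -6.29, -5.92 and -6.52 in P38α-/-, a difference of -2.87 with a standard error of 0.21. P38α-/- replicate 2 was once more the array where it rose well above background, and the gap between the genotypes, 2.41, was the widest of the 6 genes. For Stfa1, Cstdc5 and Cstdc4 the P38α-/- levels therefore rest on a single array that passed the detection limit, and no fold is given for them.

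Stfa2 and Stfa2l1, the pair with nearly identical promoters, remained detected on all 6 arrays. Stfa2 read -2.93, -2.47 and -3.27 in P38α+/- and -4.82, -4.45 and -5.14 in P38α-/-, a difference of -1.92 with a standard error of 0.28 (3.77-fold lower). Stfa2l1 read -3.48, -2.88 and -3.89 in P38α+/- and -5.19, -5.27 and -6.25 in P38α-/-, a difference of -2.16 with a standard error of 0.38 (4.45-fold lower). In both genes P38α+/- replicate 2 was the highest array and P38α-/- replicate 3 the lowest. The genotypes did not overlap, and 19.7% of all tested genes were separated with P38α-/- lower.

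Stfa3, at the far end of the cluster, stood apart from the rest. It read -2.92, -3.66 and -3.62 in P38α+/- and -4.92, -4.07 and -3.25 in P38α-/-, so that P38α-/- replicate 3, the lowest array for the other 5 genes, was here the highest of its genotype and above a pair of controls. The difference was -0.68 with a standard error of 0.45, and it was -0.26 without P38α-/- replicate 1 and -1.09 without P38α-/- replicate 3. Stfa3 was detected on all 6 arrays, so the overlap does not come from values at the floor.

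The other 5 members gave little signal. Csta1, Csta2, Csta3 and Cstdc3 were well above background on none of the 6 arrays, with signals between -8.77 and -5.86. Cstdc6, filed as BC117090, read -4.38 on P38α+/- replicate 1 and between -8.69 and -7.66 on the other 5 arrays. It passed the detection limit on that array alone, the same array where 8458 probes of the whole set did so alone. Expression of these genes was not detectable rather than shown to be absent.

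The size of the difference changed most with normexp background correction, which adds a constant to all spots: the median over the 6 genes was -1.05 in place of -2.51. Every one of the 6 genes kept a negative difference under all scalings tried.

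**Figure D2:**
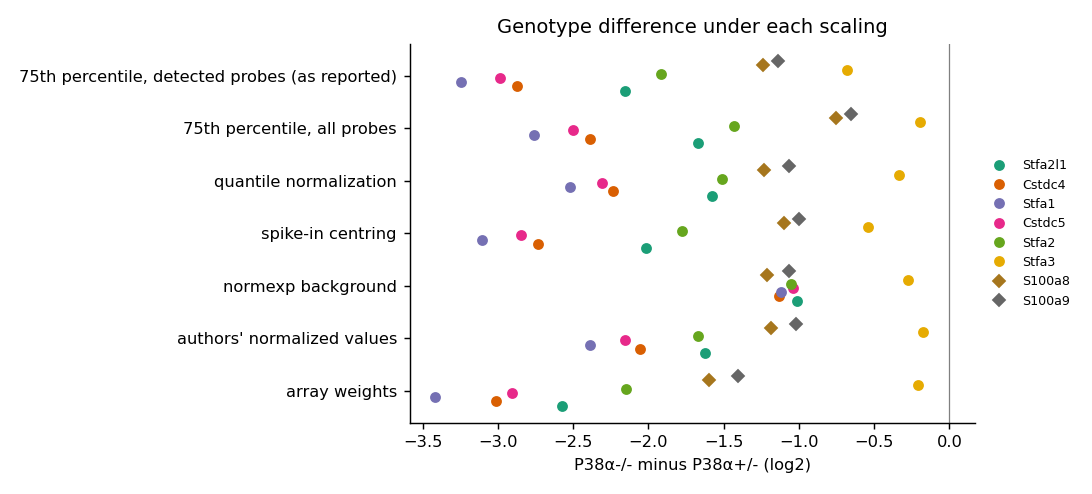
Genotype difference (x axis, log2) of the 6 tested stefin A genes (circles) and of S100a8 and S100a9 (diamonds) under 7 ways of scaling or weighting the arrays. The stefin A genes other than Stfa3 lie left of S100a8 and S100a9 in all of them except with normexp background correction, where Stfa1 stands at -1.12 and S100a8 at -1.21.

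S100a8 and S100a9 were also lower in P38α-/-, by less than the tested stefin A genes other than Stfa3. With normexp background correction S100a8, at -1.21, lay below every tested stefin A gene. As the cluster was chosen on this contrast, nothing is read from the order. S100a8 (chr3:90473778-90473837) read 4.53, 5.38 and 3.88 in P38α+/- and 3.39, 3.60 and 3.09 in P38α-/-. S100a9 (chr3:90496573-90496632) read 6.68, 7.04 and 5.93 in P38α+/- and 5.56, 5.60 and 5.08 in P38α-/-. For both, every P38α-/- array lay below every control, as was so for 19.7% of all tested genes. The differences were -1.24 with a standard error of 0.39 (limma, adjusted p = 0.159) and -1.14 with a standard error of 0.32 (limma, adjusted p = 0.145), so neither passed the threshold. Across the alternatives the adjusted p ranged from 0.0646 to 1 for S100a8 and from 0.0573 to 1 for S100a9.

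The stefin A genes and the S100 pair were then set against each other within each array. The mean of the 6 tested stefin A genes minus the mean of S100a8 and S100a9 was -8.96, -9.54 and -8.40 in P38α+/- and -10.27, -9.92 and -10.07 in P38α-/-. Every P38α-/- array again lay below every control, and the difference between genotypes was -1.12. The mean holds Cstdc4 and Cstdc5, on whose signals the cluster was chosen, so a lower offset was partly built in and tests nothing. Those genes and Stfa1 were also well above background on only 1 P38α-/- array. That offset moved with the treatment of the signals: it was -0.60 after quantile normalization, -0.58 in the authors' values, -0.40 over the 3 genes detected on all arrays and 0.20 with normexp correction. Why the offset differed between these treatments was not tested.

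Among the controls, the arrays did not rank the copies alike. Stfa2 and Stfa2l1 took the order of S100a8 and S100a9, with replicate 2 highest, replicate 1 between and replicate 3 lowest, but as the Stfa2l1 probe is annotated to Stfa2 too, these may be readings of the same transcript. Stfa1 and Cstdc5 had their highest control signal on replicate 3, where the S100 pair was lowest, and Cstdc5 its lowest on replicate 2, where the S100 pair was highest. Among the P38α-/- arrays Stfa1, Cstdc5, Cstdc4 and Stfa2 had replicate 2 highest and replicate 3 lowest, as the S100 pair did. Stfa2l1 had replicate 1 highest and Stfa3 replicate 3. Stfa1, Cstdc5 and Cstdc4 were well above background on P38α-/- replicate 2 alone, so their order cannot tell whether the split of the controls held there. With 3 arrays a genotype these orders are a description of these mice and were not tested.

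**Figure D3:**
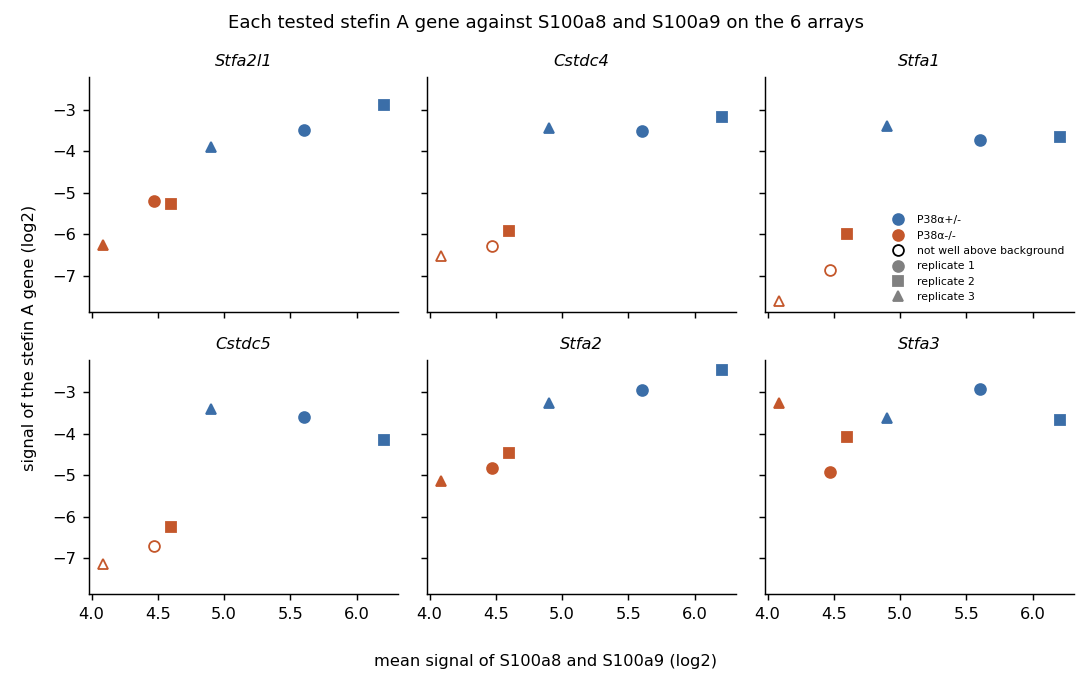
Signal of each tested stefin A gene (y axis, log2) against the mean signal of S100a8 and S100a9 (x axis, log2) on the 6 arrays, with genotype by colour, replicate by shape and open symbols where the stefin A probe was not well above background. Among the P38α+/- arrays Stfa2l1 and Stfa2 take the same order as the S100 pair and Cstdc5 the opposite order. Among the P38α-/- arrays Stfa1, Cstdc5, Cstdc4 and Stfa2 take that of the S100 pair, with most points of Stfa1, Cstdc5 and Cstdc4 open. Stfa3 shows no shared order in either genotype.

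Other neutrophil genes were then compared over the same arrays. Of 25 genes of late neutrophil maturation (S100a8 and S100a9 included), all tested, 21 had every P38α-/- array below every control and none higher, against 19.7% of all genes. None was called, and 22 had an unadjusted p of at most 0.05 with a lower signal by limma; over all genes that number was 2146 of 14158. The median difference of the list was -1.27, with a range from -2.23 to -0.16. Stfa1, Cstdc5 and Cstdc4 lay below that range. Cstdc5 and Cstdc4 are the genes on whose signals the cluster was chosen. Each of these genes, Stfa1 included, was well above background on only 1 P38α-/- array, so nothing is read from their place. With normexp background correction the medians of the stefin A and late neutrophil genes were -1.05 and -1.08. Camp, the cathelicidin precursor of specific granules, differed by -1.65 (standard error 0.46), and Csf3r, the receptor for G-CSF, by -0.16 (standard error 0.16). The summed signal of the list, in multiples of each array's 75th percentile, ran from 135 to 307 on the P38α+/- arrays and from 77.7 to 103 on the P38α-/- arrays, and no gene of it was undetected on all arrays. S100a9 and S100a8, the comparison genes, had the brightest probes of the list and so weigh most in this sum.

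Genes of earlier granule formation were taken as a second list. Of 10 such genes, all tested, 7 separated the genotypes with P38α-/- lower (19.7% over all genes), the median difference was -1.86, 9 had an unadjusted limma p of at most 0.05 with a lower signal (15.2% over all genes) and none was called. Mpo, the myeloperoxidase of primary granules, differed by -2.06 (standard error 0.61), Ctsg, a granule serine protease, by -2.03 (standard error 0.65) and Elane, the neutrophil elastase, by -1.85 (standard error 0.72), while Calr, a chaperone that every cell uses, differed by 0.12. Their summed signal ran from 10.9 to 45.7 in P38α+/- and from 6.55 to 9.68 in P38α-/-. Mpo and Calr had the highest mean signals of the list and so weigh much in this sum. In RNA of a whole sorted population, fewer cells of a type and less RNA in each of them cannot be told apart.

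Markers of other cells that the sort could hold were summed in the same way. The summed signal of 10 B cell genes ran from 0.17 to 1.78 in P38α+/- and from 0.08 to 0.24 in P38α-/-, with Blk detected on no array; the median difference of the 4 tested was -2.94, or -2.17 with the 2 undetected in P38α-/- set at the detection limit. For 10 genes of eosinophils, basophils and mast cells the ranges were 0.89 to 10.4 and 0.15 to 0.94, with Ms4a2 undetected, and the median of the 6 tested was -3.48, or -2.98 with the 1 undetected in P38α-/- at that limit. For 13 genes of monocytes and macrophages with a probe they were 0.73 to 1.78 and 0.45 to 0.94, with Cd163 undetected, and the median of the 8 tested was -0.97. For T and NK cells they were 1.19 to 3.12 and 0.97 to 1.17, with Cd8a undetected, and the median of the 4 tested was -0.24. Of those 4, only Nkg7 separated the genotypes, at -1.67 (standard error 0.57), against 19.7% of all genes. Lck, Cd3e and Cd4 overlapped, with differences of -0.07, -0.32 and -0.17. Nkg7 had the highest mean signal of that list and so weighs in its sums. Csf1r and Prg2, the brightest of the monocyte and the eosinophil lists on every array, weigh most in theirs. Of 8 epidermal genes, a tissue where stefin A is also known, 2 were tested and none separated the genotypes. Over all genes 19.7% did so with P38α-/- lower and 7.44% with P38α-/- higher, so 2 genes are too few to tell. Krt1 and Lor were undetected, and the sums ran from 0.07 to 0.25 in P38α+/- and from 0.05 to 0.11 in P38α-/-. The part of these cells in the stefin A signal was not tested.

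**Figure D4:**
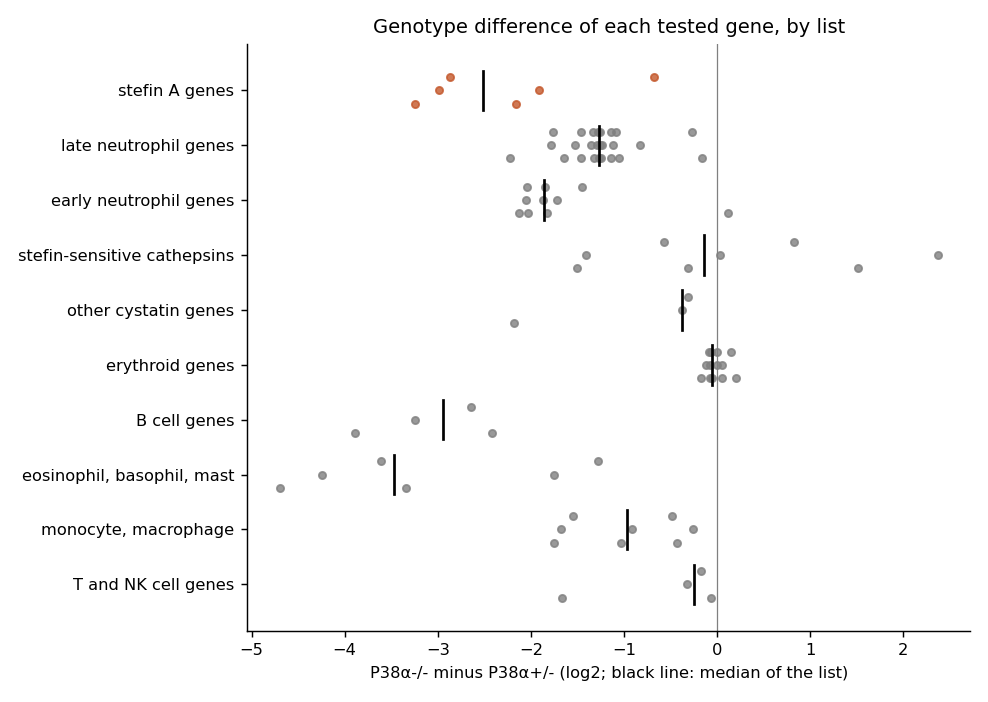
Genotype difference (x axis, log2) of every tested gene of the stefin A cluster and of 9 other lists (rows), each point a gene and each black line the list's median. The medians are -2.51 for the stefin A genes, -1.27 and -1.86 for late and early neutrophil genes, -0.14 for cathepsins, -0.37 for other cystatins, -0.06 for erythroid genes, -2.94 for B cell genes, -3.48 for eosinophil, basophil and mast cell genes, -0.97 for monocyte and macrophage genes and -0.24 for T and NK cell genes. With genes undetected in P38α-/- set at the detection limit, the B cell median is -2.17 and the eosinophil, basophil and mast cell median -2.98.

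As a list, the proteases that stefins are known to block did not share a direction. Of 9 cysteine cathepsins, 8 were tested and Ctso was undetected on all arrays; 4 lay below the median difference and 4 above it, none was called, and the median was -0.14. Ctsb, the lysosomal cathepsin B, read between 3.60 and 3.83 on all 6 arrays, a difference of 0.03 (standard error 0.15). Ctsh, an aminopeptidase cathepsin, differed by -1.51 (standard error 0.52), Ctsz by -0.31 (standard error 0.24) and Ctsf by 0.83 (standard error 0.28). Ctss and Ctsl, named above with Ctsb and Ctsh as targets, were lower too, by -1.41 (standard error 0.56) and -0.57 (standard error 0.22). Ctsc differed by 1.52 (standard error 0.54) and was detected on 1 of the 3 control arrays. Ctsk, the cathepsin of osteoclasts, had the highest difference of the list, 2.37 with a standard error of 0.99; it was named after its value was seen, and of the 3 control arrays it was detected on 1.

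Other inhibitors of the family were mostly silent or level. Of 15 cystatin family genes outside the cluster, 3 were tested, 10 were undetected on all arrays and none was called. Cstb, the single-copy stefin B, read -2.63, -2.47 and -3.22 in P38α+/- and -2.90, -3.14 and -3.22 in P38α-/-, a difference of -0.31 (standard error 0.24). Cst3, the secreted cystatin C, differed by -0.37 (standard error 0.32), and in both genes the genotypes overlapped. Cst7, cystatin F of granule-bearing blood cells, differed by -2.18 (standard error 0.68). Its P38α-/- arrays all lay below its controls, as was so for 19.7% of all tested genes.

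The genes around the cluster did not share its difference. Between 35 and 37.5 Mb of chromosome 16, 52 probes of 37 other genes or transcripts were present and 26 were tested. None was called, 3 had every P38α-/- array below every control (19.7% over all genes) and 1 above (7.44% over all genes), 2 had an unadjusted p of at most 0.05 by limma (20.9% over all probes), and their median difference was -0.05. The 5 tested probes inside the window that were not members ranged from -0.32 to 0.11. On the near side the closest tested gene was Ccdc58 (-0.32, standard error 0.17), a mitochondrial protein, and on the far side Slc15a2 (1.34, standard error 0.60), a peptide transporter. Just inside the window, the outermost members were Csta1 at 0.07, undetected on every array, and Stfa3 at -0.68. Just outside it lay probes of Parp9 at -0.12 and of the unnamed TC1713419 at 0.11, the latter undetected as well.

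**Figure D5:**
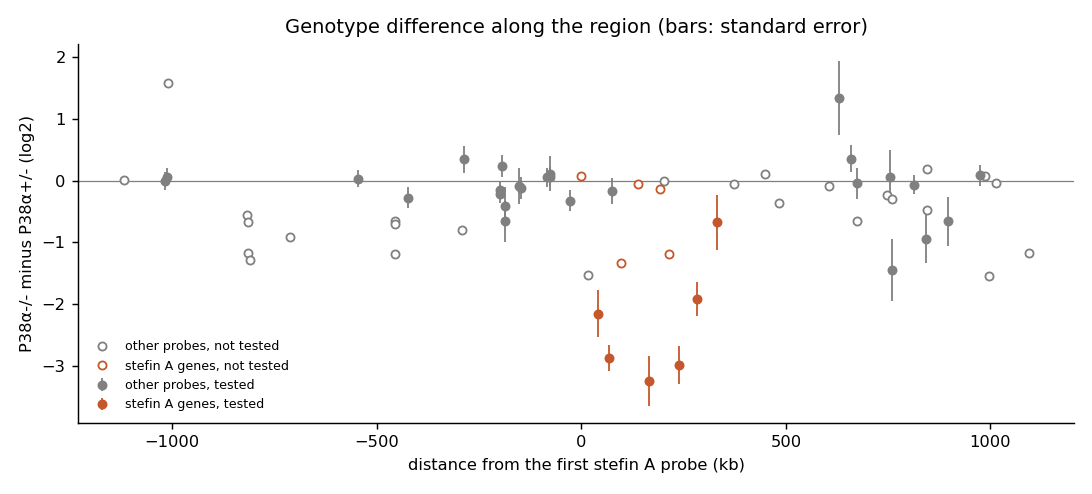
Genotype difference (y axis, log2) of the stefin A genes (orange) and all other probes (grey) against distance from the first stefin A probe (x axis, kb), with the standard error as bars for tested probes and open circles for probes too dim to test. Inside the 331 kb of the cluster, 5 stefin A genes lie between -3.24 and -1.92, while 0 of the 26 tested neighbours reach -1.92, the lowest being -1.45.

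The genes most like the mean profile of the 6 tested stefin A genes over the 6 arrays were mainly other genes with a step between the genotypes. The highest Pearson correlations were those of Rtp4 (0.998), A130077B15Rik (0.996), Tmed2 (0.994), Ggct (0.994), Rock2 (0.991), Zfp110 (0.990), Cecr2 (0.990), Ttc9c (0.990), Lemd3 (0.989) and an unnamed transcript of chromosome 17 (0.989). Their own differences ran from -2.34 for Rtp4 to -0.15 for Ttc9c, and none belongs to the neutrophil lists. Ggct was well above background on no P38α-/- array, and Rtp4 on 2 of them. Rtp4, a chaperone for odorant and opioid receptors that interferon induces, read -3.22, -3.10 and -3.40 in P38α+/- and -5.77, -5.10 and -5.86 in P38α-/-. S100a8 (0.845) and S100a9 (0.880) came at ranks 1394 and 894 of 14152 genes, of which 4.44% exceeded 0.9. As the 6 arrays fall into 2 genotypes, such a correlation mostly tells how evenly a gene steps between them, and it is given with no test.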

How the data were processed

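RNA of 6 sorted erythroblast samples, 10 ng each, was amplified into Cy3-labelled cRNA, and each sample was run on its own 1-colour Agilent array. The authors deposited the spot intensity of each array as Agilent Feature Extraction 10.7.3.1 wrote it, background-subtracted, with positions in mm9, and a table of normalized intensity values whose steps are not given in the sources used here; its column for P38α-/- replicate 2 followed that array's own signal with a Spearman rho of 0.897, the other columns with 1.00. Outlier spots were left out, spots of a probe averaged, log2 taken and the array's 75th percentile over probes detected on all arrays subtracted. No spot was saturated. Genotypes were compared over 18785 probes with limma 3.58.1 (lmFit, eBayes) in R 4.3.3, with Benjamini-Hochberg adjustment; the same code was tested on simulated data. A gene was read by its brightest tested probe. Symbols came from the accession for 27503 probes, from a current symbol for 3554, from a synonym for 404 and from a listed accession for 21, and 24199 kept the name in the file. 0 columns were left unassigned.

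The design text speaks of pairs of mice without saying which arrays belong together, and the methods state no pairing. After each genotype's mean was removed, the correlation across probes was 0.393, 0.242 and 0.389 for same-numbered mice and no higher than 0.0611 for the rest. Shared numbers may thus mark pairs. The main comparison was nevertheless unpaired, as in the methods, so its standard errors and p-values leave such pairs out. Pairing by number entered only as the replicate block, where the limma adjusted p was 0.0826 for S100a8 and 0.0688 for S100a9. Every member was named by its probe, as were S100a8 and S100a9. Of each list the called genes were named and otherwise up to 4 of the brightest, and of the cathepsins Ctss, Ctsl, Ctsc and Ctsk as well. Of the surroundings the nearest tested gene on each side was named, and also the 10 genes most like the members. The members and gene lists were chosen with earlier results of these data known. Alternatives covered scaling, background, filter, replicate block, slide, array weights, the methods' t-test and leaving out each array. The number of arrays limits the precision. A further marker list is not reported here.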

Additional observations from a re-analysis of the deposited data

How the results depend on the processing

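The median difference of the 6 stefin A genes, -2.51, was -2.03 with the percentile over all probes, -1.91 after quantile normalization, -1.05 with normexp, -1.92 over the genes detected on all arrays, -1.86 in the authors' values, and between -2.67 and -2.27 leaving out each array. The number of stefin A genes called, 2, was 5 with the percentile over all probes and with array weights, 1 with detection on all arrays, 0 under quantile normalization, spike-in centring, normexp, no filter, the authors' values, the slide block and the methods' t-test, and from 0 to 2 leaving out each array (1 without P38α+/- replicate 1, 0 without P38α+/- replicate 2 or any P38α-/- array); as the cluster was chosen on this contrast, these calls are no test. The change relative to S100a8 and S100a9, -1.12, was 0.20 with normexp and -0.40 over genes detected on all arrays, and from -1.41 to -0.84 leaving out each array. S100a8 ran from -1.60 to -0.85 and S100a9 from -1.45 to -0.89 leaving out each array, and neither passed the threshold under any alternative. With the percentile over all probes, 3 cathepsins, 4 early and 1 late neutrophil gene, 1 other cystatin and 1 neighbouring probe were called, against 0 of each; late neutrophil calls were 2 with array weights. With the replicate block 1 late neutrophil gene was called, Stfa2 took the place of Cstdc5 among the called members, 40 genes were called lower and 13 higher, and no other call described here changed. All genes called lower and higher, 5 and 19, were 245 and 141 with array weights, 13 and 43 with detection on all arrays, 0 and 2 by the methods' t-test and 0 and 0 with no filter or the slide block; leaving out each array gave 0 to 49 and 0 to 33, with 49 and 33 without P38α+/- replicate 3. The causes were not tested, except that fewer genes remain where all arrays must detect them, and that the slide block leaves out P38α-/- replicate 3. Detection limits 3 of the 6 genes to 1 array in P38α-/-.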

Other observations

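Some probes inside the window carry no gene name and were not members. ENSMUST00000077110, whose probe resembles that of Stfa2l1, read -7.14, -5.49 and -6.22 in P38α+/- and -7.76, -8.19 and -7.46 in P38α-/-, well above background on 2 control arrays and on no P38α-/- array. NAP093863-001 was detected on all 6 arrays and overlapped between genotypes, with a difference of -0.17. TC1722392, which shares a listed transcript with the Stfa1 probe, was detected on no array.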
